A study of Mus musculus with 12 samples.

Results

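Fully grown germinal vesicle (GV) oocytes lacking ZAR1 and ZAR2 were compared with wild type (WT) GV oocytes, gene by gene, in 2 RNA sequencing libraries of each genotype. The genes described are those with at least 1 FPKM in at least 1 of the 4 libraries, which were 10526 of the 23230 genes of the table. FPKM counts sequenced fragments relative to transcript length and library size, so levels can be set side by side between genes. Of the 10526 genes, 9938 were protein coding in the annotation, 484 were other annotated genes, 84 were small RNA genes (39 named Mir, 38 named Snor and 7 others) and 20 had no match by name. The small RNA genes are described apart from the rest.

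The WT and Zar1/2-null females were of a C57BL6 and ICR hybrid background, and the null animals carried CRISPR-Cas9 mutations in both genes. GV oocytes came from females of 21 days by the labels, 44 h after an injection of PMSG, which drives follicle growth. Each library held 10 oocytes, so that the libraries are pools, and nothing states whether the 2 pools of a genotype came from different females. The p-values therefore measure the spread between pools, which may be technical. The series also holds growing and ovulated MII oocytes of both genotypes (12 libraries in all), used here only where a GV difference is set beside its value at another stage. By the labels the growing oocytes came from females of 13.5 days, so that stage and age of the donor differ together.

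ZAR1 and ZAR2 are zinc-finger RNA-binding proteins that are abundant in growing oocytes. The oocyte transcribes and stores mRNA during its growth and falls silent in transcription when it is fully grown, so that meiotic maturation and the start of embryonic life depend on stored mRNA. In the stored state many mRNAs carry a short poly(A) tail and are bound by repressive proteins at their 3′ untranslated region (UTR). Translation of a part of them is then switched on by lengthening of the tail, which the cytoplasmic polyadenylation element (CPE) in the 3′ UTR directs, and others are removed by deadenylation.

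The targeted genes were examined in every GV library. Zar1l, the table's name for Zar2 (mm9 chr5:151309630-151320739, minus strand), was at 533 and 504 FPKM in the WT libraries and at 20.9 and 19.6 FPKM in the null libraries. Zar1 (mm9 chr5:72968353-72972323, minus strand) was at 439 and 423 FPKM in WT and at 136 and 203 FPKM in null libraries. Neither gene overlapped between genotypes. Both passed the test used throughout, limma on log2(FPKM + 1) with Benjamini-Hochberg adjustment, with log2 differences of -4.61 ± 0.19 (SE, adjusted p = 1.98e-07) for Zar1l and -1.37 ± 0.20 (adjusted p = 0.000371) for Zar1. A gene's FPKM is set over its whole gene model, so these values do not show whether the remaining RNA carried the mutation.

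The deposited values had been multiplied by a factor from the spiked-in ERCC RNA, which was 0.836 and 0.697 in the WT libraries and 0.533 and 0.583 in the null libraries. This factor moved every gene of a library together. With it, the summed FPKM of the null libraries was 401824 and 421986 against 577185 and 480800 in WT, and the median log2 difference of the 10526 genes was -0.41, a level of 0.754 of WT. Without it, the median difference was -0.04. Less RNA per oocyte and fewer oocytes in a pool cannot be told apart in these libraries. "Fell" and "rose" are therefore used only of genes called with and without it, and counts called lower or higher with the deposited scaling alone are named as such.

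All 19 genes of an oocyte marker list were present, with summed levels of 22445, 18974, 16692 and 19487 FPKM in WT replicates 1 and 2 and null replicates 1 and 2. Of 19 granulosa and cumulus markers 6 reached 1 FPKM, with summed levels between 16.1 and 20.8 FPKM, and none of 6 erythroid markers did. Immune markers summed to 37.3 and 30.4 FPKM in WT and to 16.7 and 21.1 FPKM in null libraries, with 4 of the 14 listed at 0 in all of the libraries. Within these lists the granulosa genes Inha (0.410 and 0.512 FPKM in WT, 1.99 and 1.73 FPKM in null) and Gja1 (0.229 and 0.141 FPKM in WT, 1.47 and 1.33 FPKM in null) rose at these low levels, while Kitl fell (1.46 and 0.971 FPKM in WT, 0.168 and 0.101 FPKM in null).

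More genes were called lower than higher in null GV oocytes, by a margin that depended on the scaling. With the deposited scaling 4341 of the 9938 protein-coding genes were called lower in null GV oocytes (43.7%) and 275 higher (2.77%). Called with and without ERCC scaling were 1446 genes as lower (14.6%) and 274 as higher (2.76%). The 1446 are all the genes called lower without ERCC scaling, where 744 were called higher. With median scaling 1304 of all 10526 genes were lower and 901 higher. A further 2895 genes were lower only with the deposited scaling, and 470 of the 744 genes called higher without ERCC scaling (7.49%) were so only there. A rule of more than 3-fold after that of the study, applied here to group means set to at least 1 FPKM, took 419 protein-coding genes as lower (4.22%) and 35 as higher (0.352%), of which 414 and 33 were also called both ways. The counts moved when 1 library was left out, the spread being pooled over the other groups when a genotype was left with 1 library. Such a fit has fewer libraries, so a call lost here or below need not mean a smaller difference or a fault of that library. Called both ways were 744 lower genes without WT replicate 1 and 745 without WT replicate 2, and 182 and 177 higher genes, against 1184 and 1024 lower and 262 and 189 higher genes without null replicate 1 or 2. With the deposited scaling, the 4523 lower calls among all 10526 genes became 2654 without WT replicate 1, and the 311 higher calls became 204 without WT replicate 2. WT and null libraries did not overlap for 6566 protein-coding genes that were lower (66.1%) and 613 that were higher (6.17%). Over all 10526 genes, small RNA genes included, the shares were 4.59% and 0.504% by the 3-fold rule and 65.2% and 6.41% by overlap, and 7.63% were higher without ERCC scaling.

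**Figure D1:**
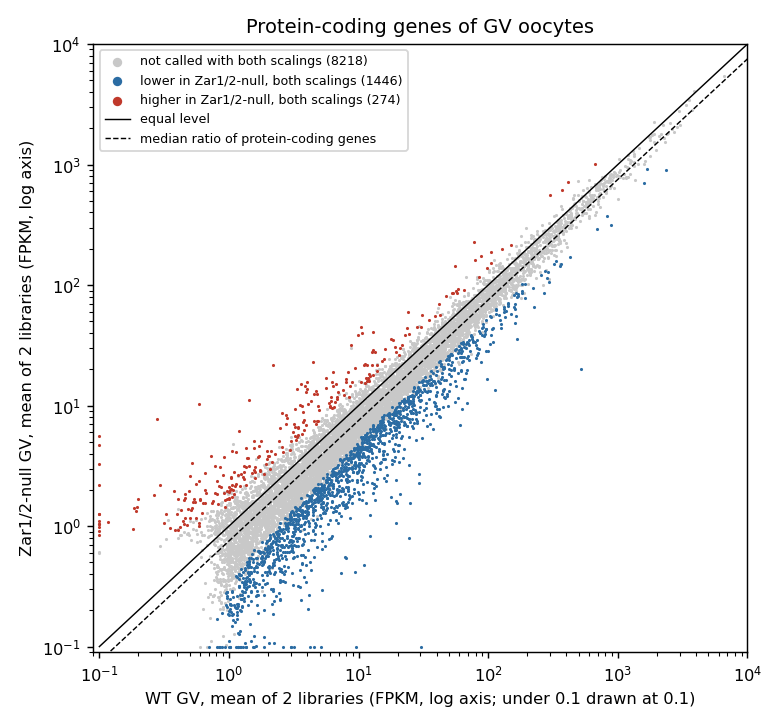
Mean FPKM of WT (x axis) and Zar1/2-null (y axis) GV oocytes for each protein-coding gene on log axes, with genes called by limma with and without ERCC scaling in blue (1446 lower) and red (274 higher). The cloud lies along the dashed line of the median ratio, below the line of equal level.

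The most abundant transcripts of WT GV oocytes did not pass the test. Gm15698 was highest, at 6821 and 6470.5 FPKM in WT and 5559 and 5310.2 FPKM in null libraries (adjusted p = 0.156). Pttg1, which encodes securin, was at 3795 and 3625 FPKM in WT and 3072 and 2619.8 FPKM in null libraries (adjusted p = 0.0688). With a term for replicate number in the limma fit Pttg1 was called lower (adjusted p = 0.00718). H1foo, the oocyte linker histone, was at 3871 and 3258 FPKM in WT and 2985 and 3874 FPKM in null libraries (adjusted p = 0.795). H1foo libraries overlapped between genotypes. E330017A01Rik and Oosp1, an oocyte secreted protein, had log2 differences of 0.07 and -0.09.

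Among genes at 10 FPKM or more in the higher genotype, called, more than 3-fold apart and without overlap of libraries, 198 were lower and 19 higher in null oocytes, and the 12 of each direction with the largest folds are described next. The largest fold was that of Manba, the lysosomal beta-mannosidase (mm9 chr3:135148575-135234368, plus strand). It was at 36.4 and 23.9 FPKM in WT libraries and at 0.0668 and 0.0305 FPKM in null libraries (log2 difference -4.86 ± 0.31, adjusted p = 5.32e-06). Khdc1c, a KH domain gene, was at 30.4 and 18.4 FPKM in WT and at 0.507 and 1.08 FPKM in null libraries. In both genes the null libraries were near or below 1 FPKM, where a fold depends on the floor.

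Of the other genes in this set, H2-Aa, an MHC class II chain, went from 38.7 and 20.2 FPKM in WT to 1.23 and 3.31 FPKM in null libraries, and Batf3, a bZIP transcription factor of dendritic cells, from 20.7 and 29.2 FPKM to 1.73 and 1.36 FPKM. Ly6e, a GPI-anchored surface protein, was at 19.4 and 19.6 FPKM in WT and at 0.922 and 1.18 FPKM in null libraries. C1qb, from the immune marker list, also fell, from 10.4 and 11.1 FPKM to 1.73 and 2.72 FPKM, and the part of immune cells in these values was not tested. The 3 immune markers that reached 1 FPKM were C1qb, Lcp1 and Cd68, and the summed levels of the list are given above.

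The set also held 6 further genes that fell. Mob1a, an activator of the Hippo pathway kinases, was at 23.4 and 16.3 FPKM in WT and at 1.33 and 1.79 FPKM in null libraries (log2 difference -3.01 ± 0.19, adjusted p = 5.32e-06). Mei4, which is needed to form meiotic DNA breaks, was at 16.6 and 7.70 FPKM in WT and at 0.698 and 0.964 FPKM in null libraries. Mtus2, a microtubule-associated protein, was at 21.9 and 19.9 FPKM in WT and at 1.67 and 2.05 FPKM in null libraries. Slc12a8, a solute carrier, was at 25.5 and 33.3 FPKM in WT and at 2.60 and 2.79 FPKM in null libraries, and the gene models Gm5465 and E330014E10Rik fell 12-fold and 10.9-fold. For each of these genes both null libraries lay below both WT libraries, as the rule of choice required.

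Of the genes that rose, Tex15, a germ cell gene of meiosis and transposon silencing, had the largest fold. It was at 0.575 and 0.599 FPKM in WT and at 13.7 and 6.93 FPKM in null libraries (log2 difference 2.77 ± 0.24, adjusted p = 2.18e-05). Srgn, the proteoglycan of secretory granules, was at 2.71 and 1.67 FPKM in WT and at 18.2 and 25 FPKM in null libraries (log2 difference 2.83 ± 0.26, adjusted p = 3.01e-05). Krt8, a keratin, was at 2.12 and 0.731 FPKM in WT and at 7.04 and 15.1 FPKM in null libraries. Of 9 epithelial and mesothelial markers only Krt8, Cdh1 and Cldn4 reached 1 FPKM, Krt8 was the single one that rose, and the summed level of the list was between 26.9 and 37.0 FPKM in the libraries. The part of other cells in the Krt8 values was not tested.

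Hmgn3, a nucleosome-binding protein, was at 8.93 and 11.8 FPKM in WT and at 49.3 and 41.0 FPKM in null libraries, and Tbpl1, a relative of the TATA-binding protein, at 4.39 and 3.33 FPKM and at 12 and 17.4 FPKM. The noncoding snoRNA host Snhg6 was at 37.4 and 25.9 FPKM in WT and at 140 and 113 FPKM in null libraries. Dapl1 was at 3.59 and 3.64 FPKM in WT and at 15.2 and 15.3 FPKM in null libraries. The remaining 5 genes that rose were the gene models 1190007I07Rik, 2300009A05Rik, 5730437N04Rik, Gm8267 and LOC100504703, with folds of 5.13, 3.90, 3.87, 4.13 and 4.16. In each of the 12 both null libraries were above both WT libraries, which the choice of these genes required.

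**Figure D2:**
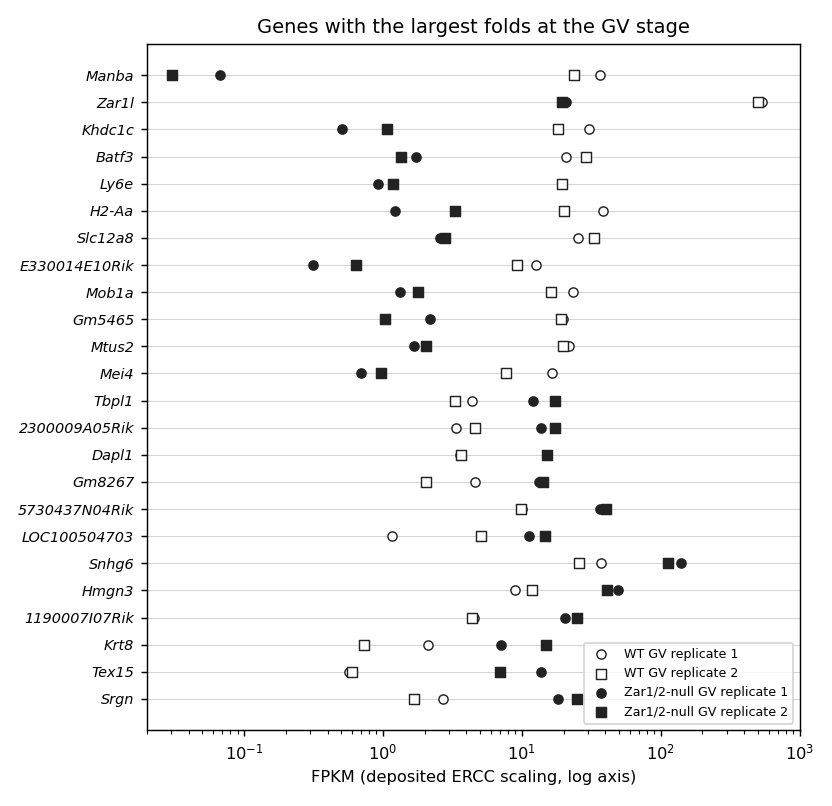
FPKM (log axis) in each of the 4 GV libraries for the 12 genes with the largest fold down and the 12 with the largest fold up; open symbols are WT, filled symbols Zar1/2-null, circles replicate 1 and squares replicate 2. The genotypes do not overlap for any of the 24 genes, which were chosen so, and the null libraries of Manba lie below 0.1 FPKM.

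The same genes were set beside growing oocytes and ovulated oocytes labelled MII, which are other libraries of both genotypes. The study reports that ovulated null oocytes were arrested in metaphase I or telophase I, so that at MII the meiotic stage differs with the genotype. Of the 1446 protein-coding genes that fell at the GV stage, 677 (46.8%) also fell in growing oocytes, where 1253 of the 9938 genes fell (12.6%), and 23 rose there. The shared genes made up 54.0% of those that fell in growing oocytes. At MII, 648 of the 1446 (44.8%) fell, against 1143 of 9938 (11.5%), and 43 rose, and the 648 made up 56.7% of the genes that fell at MII. Of the 274 genes that rose at GV, 151 (55.1%) rose in growing oocytes, where 836 of 9938 rose (8.41%), and 159 (58.0%) rose at MII, where 2177 rose (21.9%). These were 18.1% and 7.30% of the genes that rose at those stages.

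Some of the genes described above were already different in growing oocytes and others were not. Slc12a8 was at 79.6 and 72.4 FPKM in WT growing and at 5.09 and 4.05 FPKM in null growing oocytes. Hmgn3 was at 9.32 and 11.5 FPKM in WT growing and at 35.6 and 26.9 FPKM in null growing oocytes. Polr2h, a shared subunit of the RNA polymerases, was by contrast at 25.3 and 24.5 FPKM in WT growing and at 23.7 and 22.4 FPKM in null growing oocytes (adjusted p = 0.720), and at 28.1 and 21.1 FPKM in WT GV and at 2.86 and 3.54 FPKM in null GV oocytes (adjusted p = 1.38e-05). The difference between the stages was tested for the 24 genes with the largest folds, and 13 of them passed. These genes were chosen by their GV difference, which is a part of the value tested.

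Proteins that bind and store maternal mRNA were the group closest to ZAR1 and ZAR2 in function. Of 27 genes of the storage particle, 13 were called lower with the deposited scaling, and 5 fell with both scalings, which is 18.5% beside 14.5% of all 10526 genes. The median log2 difference of the group was -0.46 beside -0.41 for all genes, and -0.06 beside -0.04 without ERCC scaling. Without WT replicate 1 the counts were 7 and 2, and without WT replicate 2 also 2 fell and without null replicate 2, 3. Cnbp, a zinc knuckle protein that binds mRNA, was at 262 and 185 FPKM in WT and at 54.9 and 75.8 FPKM in null libraries (log2 difference -1.75 ± 0.20, adjusted p = 9.34e-05). Dazl, a germ cell activator of translation, was at 276 and 236 FPKM in WT and at 111 and 131 FPKM in null libraries, and the repressor Pum2 at 24.8 and 23.6 FPKM and at 12 and 7.41 FPKM. These 3 genes and Stau2 fell without overlap of the libraries.

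The CPE-binding protein gene Cpeb1 was at 166 and 153 FPKM in WT and at 136 and 142 FPKM in null libraries (adjusted p = 0.301). Ybx2, which encodes the MSY2 protein that packages stored mRNA, was at 35.2 and 38.9 FPKM in WT and at 42.0 and 27.2 FPKM in null libraries, which overlapped (adjusted p = 0.657). Neither passed the test. Of the 7 genes of the subcortical maternal complex and the cytoplasmic lattices, Nlrp4f and Zbed3 were lower with the deposited scaling, and 0 were called by limma without ERCC scaling, where 0 had a lower and 1 a higher level at an unadjusted p under 0.05. Both calls were lost without WT replicate 1 or null replicate 1. Nlrp5 was at 226 and 199 FPKM in WT and at 177 and 165 FPKM in null libraries, and Padi6 at 966 and 914 FPKM and at 717 and 1019 FPKM.

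Enzymes that shorten and degrade mRNA were examined next. Of 18 genes of the CCR4-NOT and PAN deadenylases and their BTG partners, 12 were lower with the deposited scaling and 3 (16.7%) fell with both, beside 14.5% of all genes. Without WT replicate 1 the counts were 4 and 2, without WT replicate 2 they were 8 and 2, and without null replicate 2 they were 10 and 2. Pan3 was at 58.1 and 51.7 FPKM in WT and at 24.1 and 16.5 FPKM in null libraries, and the catalytic subunit Cnot6 at 10.3 and 9.35 FPKM and at 4.56 and 2.95 FPKM. Btg4, the adaptor needed for clearance of maternal mRNA, was at 2762 and 2067 FPKM in WT and at 1699 and 1853 FPKM in null libraries and did not pass (adjusted p = 0.131). With a term for replicate number in the limma fit Btg4 was called lower (adjusted p = 0.0295). Cnot7 was at 202 and 136 FPKM and at 93.3 and 118 FPKM and was lower only with the deposited scaling (adjusted p = 0.0296 with it and 0.391 without it, and 0.250 without WT replicate 1 and 0.171 without null replicate 1). Of 37 decapping, exonuclease and exosome genes 15 were lower with the deposited scaling and 2 fell, among them the decapping enzyme Dcp2, from 8.87 and 7.53 FPKM to 2.40 and 2.49 FPKM. Without either WT library or null replicate 2, 1 of them fell.

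Of 8 genes of poly(A)-binding proteins and of the PAIP proteins that interact with them, 2 rose with both scalings, and the 3 that were lower were so only with the deposited scaling. The median log2 difference of the group was -0.46 beside -0.41 for all genes, of which 2.95% rose and 14.5% fell with both scalings. Pabpc1, the somatic poly(A)-binding protein, was at 6.4 and 6.29 FPKM in WT and at 22.5 and 15.6 FPKM in null libraries (log2 difference 1.43 ± 0.18, adjusted p = 0.000182). Pabpn1l, the oocyte and embryo form of the nuclear protein, was at 290 and 308 FPKM in WT and at 492 and 619 FPKM in null libraries (log2 difference 0.88 ± 0.23, adjusted p = 0.0111). Its call was lost without WT replicate 1 (adjusted p = 0.0738) and without null replicate 2 (adjusted p = 0.0726). Pabpc1l, the oocyte's own cytoplasmic form, was at 52.3 and 51.9 FPKM in WT and at 31.8 and 44.3 FPKM in null libraries and did not pass (adjusted p = 0.105). Of the 22 polyadenylation genes 3 fell, among them the poly(A) polymerase Papola (45.8 and 39.7 FPKM in WT, 23.6 and 23.2 FPKM in null) and the cleavage factor Cpsf2. Of these, 1 fell without either WT library or null replicate 2.

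Genes of the m6A pathway, which marks mRNA by adenosine methylation and reads the mark, were among the groups with the highest shares of genes that fell. Among all 10526 genes 43.0% were lower with the deposited scaling and 14.5% fell. Of 17 genes 11 were lower with the deposited scaling and 7 (41.2%) fell with both, with a group median of -0.70, or -0.28 without ERCC scaling. The 7 became 4 without WT replicate 1, 3 without WT replicate 2 and 4 without null replicate 2. Ythdf3, a cytoplasmic reader of the mark (mm9 chr3:16083183-16117035, plus strand), was at 54.3 and 44.4 FPKM in WT and at 10.9 and 8.87 FPKM in null libraries (log2 difference -2.21 ± 0.17, adjusted p = 1.16e-05). Rbm15, which guides the methyltransferase, and the reader Hnrnpa2b1 fell 2.49-fold and 2.22-fold. Ythdf3 was also lower in growing null oocytes, at 59.6 and 52.9 FPKM in WT and at 21.8 and 22.8 FPKM in null oocytes.

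Genes of nuclear RNA processing and export were also lower in part. Of 17 hnRNP genes 10 were lower with the deposited scaling and 7 (41.2%) fell, beside 14.5% of all genes. Of 16 SR splicing factor genes 11 were lower with the deposited scaling and 4 fell. At an unadjusted p under 0.05 there were 0 higher in either group with either scaling. Hnrnpk was at 196 and 129 FPKM in WT and at 37.1 and 60.0 FPKM in null libraries, and the splicing activator Tra2b at 49.0 and 42.7 FPKM and at 11 and 12.4 FPKM. Hnrnpa3 and the SR protein kinase Clk4 fell 3.79-fold and 4.08-fold. Of 37 genes of the spliceosomal core 18 were lower with the deposited scaling and 3 fell, among them Sf3b1 and Snrpc. The 3 became 1 without WT replicate 2 or null replicate 2, and the counts of hnRNP and SR genes were 5 to 6 and 4 whichever library was left out. Of 21 mRNA export genes 9 were lower with the deposited scaling and 6 fell, each by more than 3-fold, and 6 or 7 fell whichever library was left out. Thoc2, the scaffold of the THO complex, was at 15.6 and 11.9 FPKM in WT and at 2.61 and 2.31 FPKM in null libraries, Sarnp at 48.1 and 34.7 FPKM and at 7.67 and 8.58 FPKM, and Alyref2 at 24.5 and 16.5 FPKM and at 3.43 and 3.42 FPKM.

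Transcription and chromatin genes differed by complex. Among all 10526 genes 43.0% were lower with the deposited scaling and 14.5% fell. Of 18 genes of RNA polymerases I and III and of rRNA precursor processing 11 were lower with the deposited scaling and 8 (44.4%) fell, among them the polymerase I subunit Twistnb (10.9 and 8.70 FPKM in WT, 1.81 and 2.05 FPKM in null) and the pre-rRNA processing factor Utp23. The 8 became 5 without WT replicate 2 or null replicate 1. Of 13 genes of RNA polymerase II only Polr2h fell, and Polr2j, another subunit, was at 932 and 798 FPKM in WT and at 875 and 744 FPKM in null libraries (adjusted p = 0.656). Of 28 Mediator genes 13 (46.4%) were lower with the deposited scaling, near the share of all genes. Below that share, 2 (7.14%) fell, among them Med17, from 75.5 and 58.3 FPKM to 14.7 and 22.5 FPKM. Of the Mediator genes 1 fell without WT replicate 2 and 3 without null replicate 1. Of 33 DNA methylation and Polycomb genes 18 were lower with the deposited scaling and 8 fell, and 4 without either WT library and 5 without null replicate 2. The ubiquitin ligase Rnf2 (RING1B) was at 47.9 and 41.7 FPKM in WT and at 8.81 and 10.7 FPKM in null libraries (log2 difference -2.09 ± 0.14, adjusted p = 6.76e-06), and its partner Yaf2 at 30.1 and 25.5 FPKM and at 8.07 and 7.36 FPKM.

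Setdb2, a histone methyltransferase, and Hells, a remodeller needed for DNA methylation, fell 3.89-fold and 3.57-fold. The next counts stand beside 14.5% of all 10526 genes that fell and 2.95% that rose. Among 18 maternal-effect genes 3 fell, which were Mbd3l2 (118 and 87.4 FPKM in WT, 28.4 and 35.9 FPKM in null), the insulator protein gene Ctcf (21.7 and 20.6 FPKM, 8.90 and 6.72 FPKM) and the dioxygenase gene Tet3 (58.2 and 52.0 FPKM, 30.4 and 27.5 FPKM). Without either WT library 1 of them fell. Of 34 histone genes 5 fell and 4 rose, and 2, 1, 2 and 3 fell without WT replicate 1, WT replicate 2, null replicate 1 and null replicate 2. The variant H2afz and the linker histone H1f0 were among those that fell, 2.73-fold and 2.45-fold, and Hist1h4h, H2afj and Hist3h2a rose, 2.69-fold, 1.97-fold and 1.95-fold. The call of Hist1h4h was lost without WT replicate 2 (adjusted p = 0.159), null replicate 1 (adjusted p = 0.0765) or null replicate 2 (adjusted p = 0.0623). Replication-dependent histone genes are near-identical copies, and their values in uniquely mapped reads are uncertain.

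Meiotic cell cycle genes were next, beside 14.5% of all 10526 genes that fell and 2.95% that rose. The cyclin-dependent kinase switch that starts maturation had 3 of 33 genes that fell and 2 that rose. Ccnb1, the cyclin B1 of maturation promoting factor, was at 829 and 626 FPKM in WT and at 379 and 514 FPKM in null libraries, and was lower only with the deposited scaling (log2 difference -0.71 ± 0.21, adjusted p = 0.0203, and 0.274 without ERCC scaling). Its call was lost without WT replicate 1 (adjusted p = 0.169) or null replicate 1 (adjusted p = 0.152). Wee2, the oocyte kinase that holds CDK1 inactive, was at 241 and 188 FPKM in WT and at 130 and 187 FPKM in null libraries and did not pass (adjusted p = 0.0843, and 0.0217 without null replicate 2). Cdk2 fell 3.07-fold, and the inhibitor Cdkn1b rose from 5.73 and 4.04 FPKM to 7.67 and 7.15 FPKM. The call of Cdkn1b was lost without WT replicate 2 (adjusted p = 0.106) or null replicate 1 (adjusted p = 0.0701).

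Of 17 genes that control prophase arrest through cAMP 11 (64.7%) were lower with the deposited scaling, beside 43.0% of all genes. With both scalings 5 (29.4%) fell, beside 14.5% of all genes, and fewer without either WT library or null replicate 2. Pde3a, the phosphodiesterase that lowers cAMP, was at 9.75 and 8.87 FPKM in WT and at 3.59 and 3.27 FPKM in null libraries, and the anchor Akap2 and the G protein Gnai1 fell 3.35-fold and 3.10-fold. Of 35 genes of Aurora kinases and spindle assembly 7 fell and 1 rose, and 4 fell without either WT library. Haus1, an augmin subunit, was at 47.4 and 49.5 FPKM in WT and at 14.1 and 10.1 FPKM in null libraries, Ect2 fell 3.28-fold, and the chromosomal passenger kinase Aurkb rose from 7.40 and 7.95 FPKM to 9.65 and 15.0 FPKM. The call of Aurkb was lost without WT replicate 1 (adjusted p = 0.152), WT replicate 2 (adjusted p = 0.0773) or null replicate 2 (adjusted p = 0.227). Tpx2 and Birc5 were lower only with the deposited scaling. Among 37 checkpoint and kinetochore genes 3 fell, including Cenpl and Zw10, and among 17 genes of the anaphase-promoting complex 8 were lower with the deposited scaling and 0 by limma without it, where 1 was lower at an unadjusted p under 0.05. Without WT replicate 1 the 8 became 1, and 5 without null replicate 1, and of the checkpoint genes 1 fell without either WT library or null replicate 1.

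Cohesin and recombination genes followed. Of 19 cohesin, shugoshin and separase genes 14 (73.7%) were lower with the deposited scaling, beside 43.0% of all 10526 genes. Only 2 (10.5%) fell with both scalings, beside 14.5% of all genes. The larger fold was that of the cohesin subunit Rad21 (24.5 and 21.0 FPKM in WT, 8.42 and 5.59 FPKM in null). Without WT replicate 1 the counts were 7 and 1. Of 46 genes of meiotic recombination and DNA repair 12 (26.1%) fell and Tex15 alone rose. Whichever library was left out, 10 to 12 fell. Lig4, the ligase of end joining, was at 15.0 and 12.1 FPKM in WT and at 1.97 and 2.32 FPKM in null libraries, and Rad51ap2 at 7.64 and 6.35 FPKM and at 1.05 and 1.07 FPKM. Both were below both WT libraries in each null library.

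Genes of the egg coat and of oocyte signalling differed from one another. Their counts stand beside 14.5% of all 10526 genes that fell and 2.95% that rose. Zp1, Zp2 and Zp3, which encode the zona pellucida, did not pass the test with the deposited scaling, with log2 differences of 0.00, -0.00 and -0.09, and Zp2 was called higher without ERCC scaling (0.45, adjusted p = 0.0231). Spesp1, a sperm equatorial segment gene, was listed at 0 in both WT libraries and was at 3.38 and 7.84 FPKM in null libraries. Of the oocyte secreted factors Gdf9 did not pass (2055 and 1759 FPKM in WT, 1252 and 1796 FPKM in null), and Bmp15 and the receptor Kit were lower only with the deposited scaling. The call of Bmp15 was lost without WT replicate 1 (adjusted p = 0.150), null replicate 1 (adjusted p = 0.0853) or null replicate 2 (adjusted p = 0.0653), and Gdf9 was called without null replicate 2 (adjusted p = 0.0458). Of 16 Wnt, Notch, TGF-beta and FGF pathway receptor genes 7 (43.8%) fell and 1 rose, with a median log2 difference of -0.94. Tgfbr3 (betaglycan) and Bmpr1b fell 4.28-fold and 2.38-fold, and Gli3, a Hedgehog transcription factor carried in this list, rose from 2.90 and 2.60 FPKM to 9.18 and 7.56 FPKM. Among 24 oocyte transcription factor genes 7 fell, including Rora, Clock and Lin28a, an RNA-binding protein, and 2 rose.

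**Figure D3:**
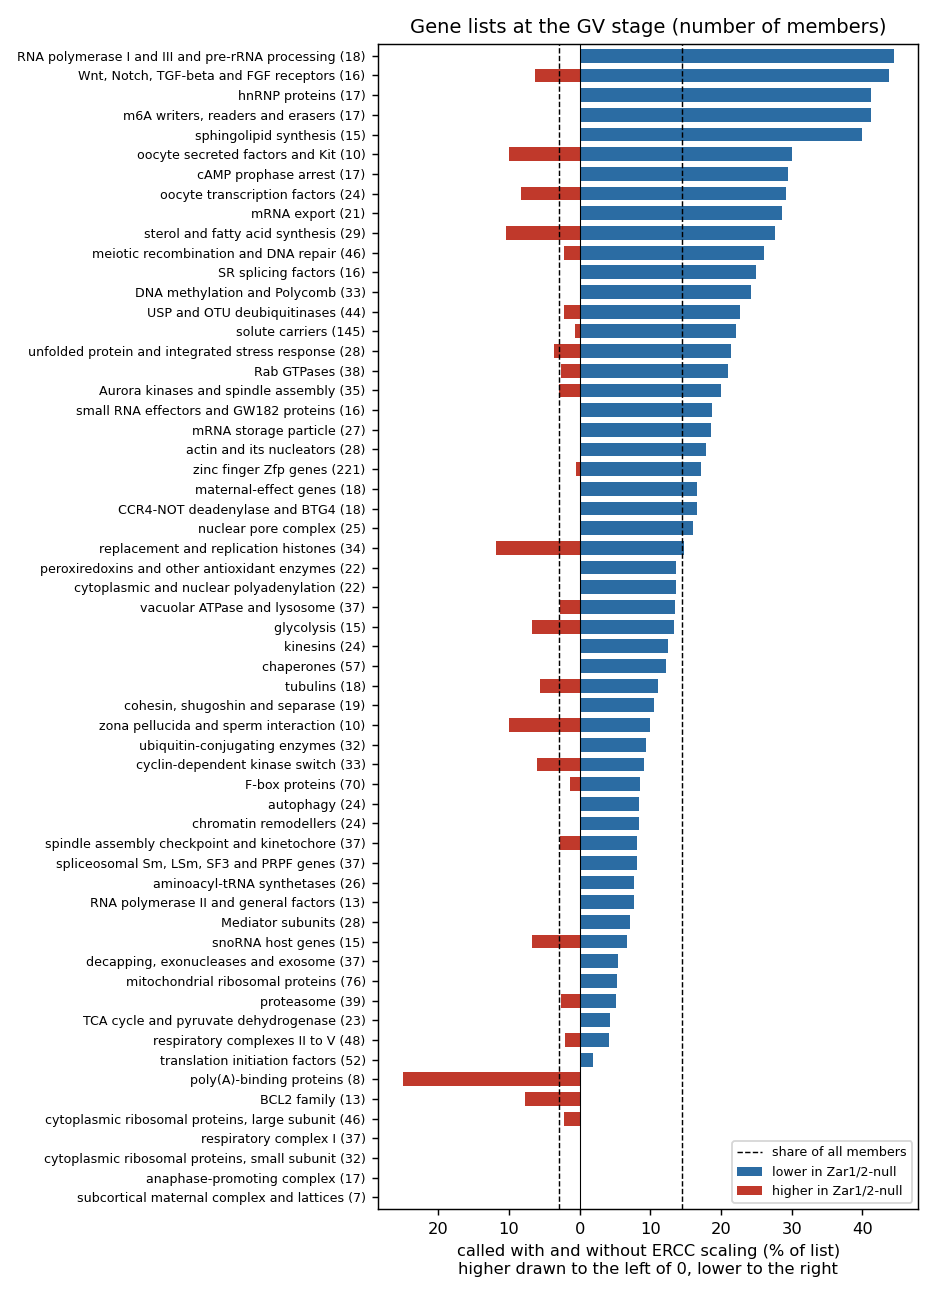
Share of the members of each of 59 gene lists called lower (blue, right of 0) or higher (red, left of 0) in Zar1/2-null GV oocytes with and without ERCC scaling, in % of the list, with the number of members in parentheses. Dashed lines mark the shares of all 10526 genes (14.5% lower and 2.95% higher); lists of few members have coarse shares, such as 2 of 8 for the poly(A)-binding proteins.

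Lipid synthesis held genes that moved in opposite directions, beside 14.5% of all 10526 genes that fell and 2.95% that rose. Of 29 sterol and fatty acid genes 8 fell and 3 rose. The 8 became 5 without WT replicate 1 or null replicate 1. Elovl7, a fatty acid elongase, was at 11.6 and 9.62 FPKM in WT and at 1.5 and 1.8 FPKM in null libraries, and the cholesterol ester hydrolase Nceh1 at 40.3 and 31.8 FPKM and at 7.69 and 9.18 FPKM. Fasn, the fatty acid synthase, rose from 1.66 and 0.746 FPKM to 5.24 and 6.98 FPKM, and Fdps, an enzyme of sterol synthesis, from 50.9 and 43.2 FPKM to 67.7 and 95.4 FPKM. The call of Fdps was lost without WT replicate 2 (adjusted p = 0.0930) or null replicate 2 (adjusted p = 0.115). Of 15 sphingolipid genes 6 (40.0%) fell, with a group median of -0.72 (-0.30 without ERCC scaling), and 4 and 3 without WT replicates 1 and 2. They included the regulators Ormdl1 and Ormdl2 (3.26-fold and 3.34-fold) and the glucosylceramide synthase Ugcg (2.38-fold).

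Genes of ribosomes and respiration were counted in the same way. Among all 10526 genes 43.0% were lower with the deposited scaling, 7.63% were higher without it and 14.5% fell. Of 46 genes of the large cytoplasmic ribosomal subunit 3 were lower and 1 higher with the deposited scaling, and 0 lower and 8 higher without it, and the median log2 difference was -0.15 with and 0.30 without ERCC scaling. Of 32 genes of the small subunit 1 was lower with the deposited scaling and 5 were higher without it, with medians of -0.09 and 0.36. The medians of all genes were -0.41 and -0.04, and dividing out the factor moves all groups up alike. Rpl9 rose with both, from 23.5 and 20.1 FPKM to 34.3 and 28.9 FPKM. Its call was lost without WT replicate 2 (adjusted p = 0.0769) or null replicate 1 (adjusted p = 0.0804). Of 37 complex I genes 3 were lower with the deposited scaling, and without it 3 were higher and 0 lower by limma, with 10 higher and 0 lower at an unadjusted p under 0.05. Of 48 genes of complexes II to V 5 were lower and 1 higher with the deposited scaling, and 2 fell and 1 rose. The calls of the genes that fell and rose were not stable when 1 library was left out. Among 76 mitochondrial ribosomal protein genes 25 were lower with the deposited scaling, 9 were higher without it and 4 fell, including Mrpl50 and Mrpl3, and among 39 proteasome genes 2 fell and the activator subunit Psme2 rose (17.4 and 18.0 FPKM in WT, 30.5 and 40.6 FPKM in null). The reference genes used in many assays differed in their results: Gapdh rose from 19.6 and 18.6 FPKM to 27.3 and 33.5 FPKM (adjusted p = 0.00400), while Actb was at 59.5 and 46.0 FPKM in WT and at 59.3 and 53.4 FPKM in null libraries (adjusted p = 0.668).

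The remaining groups ranged from shares below that of all genes to shares above it. Among all 10526 genes 43.0% were lower with the deposited scaling, 14.5% fell and 2.95% rose. Of 28 unfolded protein and integrated stress response genes 6 fell, among them the phosphatase subunit Ppp1r15b (6.11 and 5.37 FPKM in WT, 1.58 and 1.5 FPKM in null) and the co-chaperone Dnajc3, and Ddit3 (CHOP) rose from 68.7 and 61.8 FPKM to 91.0 and 90.7 FPKM. The call of Ddit3 was lost whichever of the 4 libraries was left out (adjusted p = 0.0764 to 0.141). Of 145 solute carrier genes 73 (50.3%) were lower with the deposited scaling, 32 (22.1%) fell and 1 rose. Slc6a6, the taurine transporter, and Slc16a1, a lactate and pyruvate carrier, fell 5.03-fold and 4.99-fold. Of 221 Zfp genes 113 (51.1%) were lower with the deposited scaling, 38 (17.2%) fell and 1 rose, so that the share that fell was near that of all genes. Without WT replicates 1 and 2 in turn, 20 and 20 solute carrier genes and 17 and 22 Zfp genes fell, and 24 Zfp genes fell without null replicate 2. Of 32 ubiquitin-conjugating enzyme genes 3 fell (9.38%), and of 13 BCL2 family genes Bik alone was called both ways. Ube2g2 was at 23.3 and 20.7 FPKM in WT and at 2.58 and 4.83 FPKM in null libraries, and the lysosomal pump subunit Atp6v1b2 at 56.0 and 56.3 FPKM and at 13.7 and 15.6 FPKM. Tuba3b fell 3.98-fold, whereas Tubb3 rose from 84.2 and 74.2 FPKM to 121 and 200.2 FPKM, and the BCL2 family gene Bik from 12 and 14 FPKM to 28.2 and 29.5 FPKM. The endonuclease Dicer1 fell from 31.3 and 28.9 FPKM to 12 and 10.05 FPKM.

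The 3′ UTR is where storage factors bind, and its length was set beside the differences. Of the protein-coding genes 9566 had an annotated 3′ UTR in mm9. The median length was 1279 nt for genes that fell with both scalings, 502 nt for genes that rose and 808 nt for all. Coding sequences had the same order, with medians of 1398, 999 and 1311 nt, and so had whole transcripts, with 3166, 1816 and 2666 nt. Split into 5 equal bins by length, 8.22%, 11.3%, 13.0%, 17.6% and 22.3% of the genes fell from the shortest (1 to 254 nt) to the longest bin (2000 to 23858 nt), and 4.42% and 1.41% rose in the shortest and longest. The lowest and the highest of these shares of genes that fell were also at the ends of the length order among genes of 10 to 30 FPKM, with 6.28% in the shortest and 22.8% in the longest bin, and among genes over 100 FPKM, with 2.08% and 13.3%.

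Across the 9566 genes Spearman's rho between 3′ UTR length and the log2 difference without ERCC scaling was -0.25. It lay between -0.18 and -0.27 for the 4 pairs of a null and a WT library, and was -0.01 between the WT libraries and -0.13 between the null libraries. It was -0.09 in growing oocytes and -0.36 in those labelled MII, where the meiotic stage differs with the genotype. Whole-transcript length had a rho of -0.28 with the GV difference and coding sequence length one of -0.20, so the trend was not particular to the 3′ UTR. Genes share libraries and are not independent replicates, so these values are descriptions. GC content of the transcript had a rho of 0.22 with the GV difference and of 0.40 with the difference between the WT libraries, and its part in the results was not tested.

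**Figure D4:**
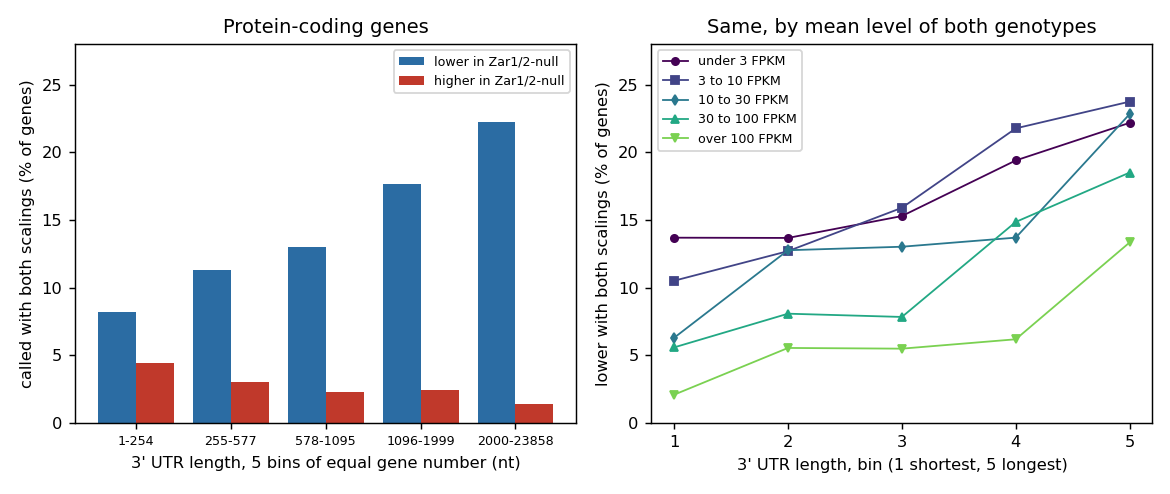
Left, share (%) of protein-coding genes called lower (blue) and higher (red) with both scalings in 5 bins of 3′ UTR length (nt, 1907 to 1923 genes each); right, share called lower by bin within 5 ranges of mean FPKM. The share that fell goes from 8.22% to 22.3% over the bins, and in every range the longest bin has the highest share.

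The last 100 nt of the 3′ UTR, which hold the signals for polyadenylation, were searched on the sense strand for the CPE as TTTTAT or TTTTAAT. The element was found in 340 of 1343 genes that fell (25.3%), in 31 of 232 that rose (13.4%) and in 20.4% of all 8972 genes with such a window. From the shortest to the longest bin of 3′ UTRs, 11.8%, 13.1%, 13.8%, 21.1% and 29.1% of the genes with the element fell, beside 7.99%, 10.9%, 12.8%, 16.7% and 20.2% of those without it. The hexamer AATAAA, bound by the cleavage factor, was in 65.0% of genes that fell, 65.5% of those that rose and 65.3% of all. The Pumilio motif TGTANATA was in 5.96%, 3.45% and 5.32%, and the AU-rich pentamer ATTTA in 24.3%, 17.7% and 23.4%. The motifs can overlap each other, as TTTTAATAAA holds a CPE and AATAAA, and a match is not a site shown to be used.

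The ends of the 3′ UTRs of 7 of the genes described are printed to show these letters, 30 bases each from the sense strand of mm9. They are examples chosen after their values were seen. Capitals mark the CPE and the polyadenylation hexamer. Pan3 (chr5:148360042-148360071, plus), Polr2h (chr16:20722311-20722340, plus) and Slc12a8 (chr16:33664189-33664218, plus) fell and hold the element within a few bases of the hexamer or overlapping it. Wee2 (chr6:40416763-40416792, plus) holds it and did not pass the test. Krt8 (chr15:101827150-101827179, minus), Pabpc1 (chr15:36525421-36525450, minus) and Pabpn1l (chr8:125143375-125143404, minus) rose and hold only the hexamer in these bases.
Pan3: gtattTTTTAATAAAgaattgcagaaataa
Polr2h: attttTTTTATTAAAgttttctttttcaga
Slc12a8: atgctTTTTAATTAAAaagtcaatcaaata
Wee2: cataTTTTAATccagatcattgtaAATAAA
Krt8: gttgtattttctaaAATAAAgcctcagctg
Pabpc1: aaaattcttgctttAATAAAaattccttaa
Pabpn1l: gtagaatgtaaattATTAAActtgaatata

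The 84 small RNA genes were set apart by their names, and reads at their loci in an oligo-dT library need not come from the mature RNA. Their values were unsteady: 68 were listed at 0 in at least 1 of the 4 libraries, 39 had a value in a single library, and 16 were above 0 in all. By limma with the deposited scaling 17 were lower (20.2%) and 0 higher, beside 43.0% and 2.95% of all 10526 genes. With an unadjusted p under 0.05 there were 37 lower and 7 higher. With both scalings 12 were lower (14.3%), beside 14.5% of all genes. By the 3-fold rule 45 were lower (53.6%) and 15 higher (17.9%), beside 4.59% and 0.504% of all genes. However, WT and null values were apart in every library for 21 of the 45 and for 0 of the 15. In 11 genes both null libraries were listed at 0 and both WT libraries were above 0, and no gene had the reverse.

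Mir24-1 was at 644 and 511 FPKM in WT and listed at 0 in both null libraries (adjusted p = 0.0308 with the deposited scaling and 0.0628 without it). The call was lost whichever of the 4 libraries was left out (adjusted p = 0.1004 to 0.146). Its hairpin (mm9 chr13:63402516-63402583, plus strand) lies in an intron of 2010111I01Rik, which was at 6.76 and 5.51 FPKM in WT and at 3.70 and 5.27 FPKM in null libraries and was not called. Mir3068 (mm9 chr12:88778629-88778707, minus strand, in Alkbh1) was at 258 and 205 FPKM in WT and listed at 0 in both null libraries. Mir5113 was at 0.0128 and 219 FPKM in WT and listed at 0 in null libraries, so that its difference rests on 1 library (adjusted p = 0.182, and 0.0299 without WT replicate 1). Printed from RefSeq (GRCm38.p6), with the seed at bases 2 to 8 in capitals, the mature miRNAs of these loci share no seed.
miR-24-1-5p: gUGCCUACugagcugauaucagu
miR-24-3p: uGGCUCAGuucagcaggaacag
miR-3068-5p: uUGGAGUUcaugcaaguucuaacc
miR-3068-3p: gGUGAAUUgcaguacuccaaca
miR-5113: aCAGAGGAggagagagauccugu

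Of the 17 small RNA genes called lower 13 were H/ACA snoRNA genes, whose RNAs guide pseudouridylation and are cut from the introns of host genes. Snora47 had the highest level, 1846 and 1089 FPKM in WT and 88.5 and 32.6 FPKM in null libraries. Snora68 was at 222 and 141 FPKM in WT and listed at 0 in null libraries. Of the 17, 12 lay in a host gene above 1 FPKM, and 4 of these hosts were lower with the deposited scaling (Nupl1, Zbed3, Rpsa and Eif4a2) and 0 with both scalings.

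**Figure D5:**
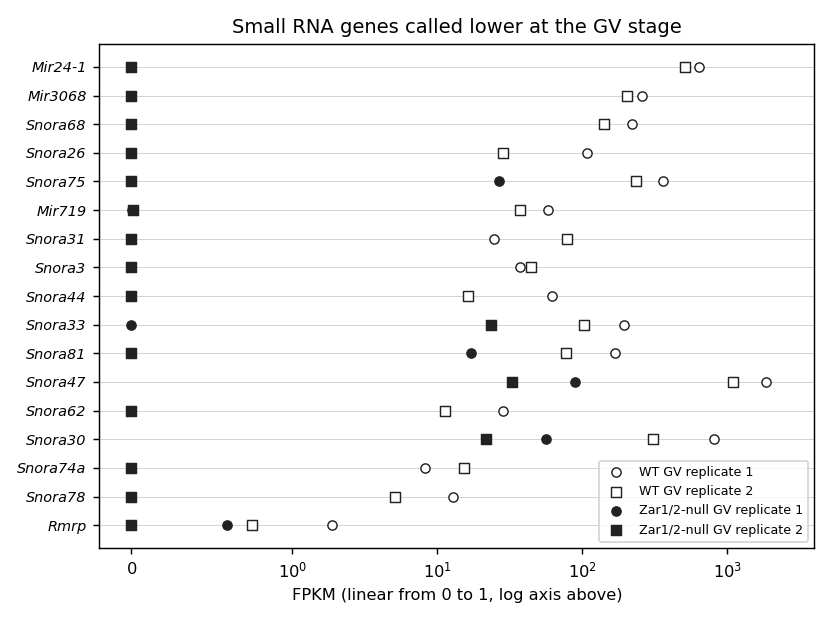
FPKM of the 17 small RNA genes called lower in each of the 4 GV libraries, on an axis linear from 0 to 1 and logarithmic above; open symbols are WT, filled symbols Zar1/2-null. Of the 17 genes, 10 have both filled symbols at exactly 0, and none has a null library at the level of a WT library.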

How the data were processed

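Poly(A)+ RNA of 10 oocytes per library was sequenced after Smart-seq2 amplification, which primes with oligo-dT. The authors cut the reads to 50 bp, aligned these with TopHat 2.1.1 (mm9), used unique hits and ran Cufflinks 2.2.1 on UCSC transcripts. Each deposited FPKM value had been multiplied by the authors by a library factor from the ERCC share, set to the WT growing oocytes. The factors were recovered from the values and divided out for the analysis without ERCC scaling, and another scaling set libraries to the same median. The depth behind a value is unknown, since the table holds no counts, and a value of exactly 0 can be a failed estimate (30.9 to 32.2% of the genes in a GV library).

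Groups came from the sample titles. Genes at 1 FPKM or more in at least 1 of the 12 libraries (11502) were fitted with limma 3.58.1 in R 4.3.3 on log2(FPKM + 1), with 1 term for each of 6 groups, eBayes with an intensity trend and Benjamini-Hochberg adjustment over all fitted genes at 0.05. A log2 difference is on the log2(FPKM + 1) scale and understates the change of low genes. With 2 against 2 libraries an exact permutation test cannot go below p = 0.333, and the limma values draw on the spread of all 12 libraries. Tested on simulated data for the GV comparison (11502 genes, 200 changed), the fit recovered 64% of 2-fold and 100% of 4-fold changes, with 1 false call. The changed genes were drawn only from the better expressed genes of WT GV oocytes. The noise was independent between genes, and no library factor was simulated. These rates therefore do not cover low genes, a shift of a whole library or a change of as many genes as were called here.

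Genes named are Zar1 and Zar1l, the 12 largest folds each way among called genes more than 3-fold apart with a mean of 10 FPKM or more and no overlap, up to 3 called genes each way per list at 5 FPKM or more (all genes for lists of up to 12), genes the study examined, the 5 most abundant, and small RNA genes with the largest folds. The motif examples, genes of the chromosome 10 run, Snora47 and host genes were chosen after their values were seen. The genes, lists and rules were chosen with earlier results of these data known. UTR and gene positions are from the mm9 annotation, mature miRNAs from RefSeq (GRCm38.p6). Tables were made with Python 3.11.15 and pandas 2.3.3. Some results are not reported here because they need withheld items.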

Additional observations from a re-analysis of the deposited data

Results flagged for a closer look

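Of the 24 genes with the largest folds at the GV stage, 13 had an effect of the knockout that differed between GV and growing oocytes (limma interaction). The adjustment was over all 11502 fitted genes, of which 13.9% passed. The 24 genes were chosen by their GV difference, which is a part of the value tested. Their share therefore cannot be compared with that of all genes. The values are differences of log2 differences, GV minus growing.

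Srgn turned its direction, with an interaction of 6.68 ± 0.37 (SE, adjusted p = 4.65e-06). It was at 16.9 and 15.3 FPKM in WT growing and at 0.206 and 0.153 FPKM in null growing oocytes, below WT, and above WT at the GV stage. Tex15 was near 0 in growing oocytes of both genotypes, at 0.608 and 0.332 FPKM in WT and 0.296 and 0.458 FPKM in null, and its interaction was 2.86 (adjusted p = 0.00101). 1190007I07Rik (2.18, adjusted p = 0.000939) and Dapl1 (1.70, adjusted p = 0.0107) were likewise not called in growing oocytes and rose at GV.

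Manba (-2.30), Khdc1c (-2.63), Ly6e (-1.28), Mob1a (-1.82) and Gm5465 (-1.85) were lower in null oocytes at both stages and had the larger difference at GV. Mob1a was at 28.4 and 26.2 FPKM in WT growing and at 11.7 and 11.1 FPKM in null growing oocytes. Snhg6 (1.29) and 5730437N04Rik (0.76) were higher at both stages, more so at GV. H2-Aa (1.96) and Krt8 (-1.82) had the larger difference in growing oocytes, where H2-Aa was at 53.3 and 94.1 FPKM in WT and 1.05 and 0.907 FPKM in null libraries and Krt8 at 3.84 and 3.59 FPKM and at 72.8 and 88.0 FPKM. Without ERCC scaling the interaction did not pass for Ly6e (adjusted p = 0.09996), Krt8 (0.0711), Dapl1 (0.0556) and 5730437N04Rik (0.0685).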

How the results depend on the processing

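The counts depend most on the ERCC scaling. Genes called lower were 4523 of 10526 with the deposited values, 1528 without ERCC scaling and 1304 with median scaling, and genes called higher 311, 803 and 901. The 3-fold rule gave 483, 289 and 205 lower and 53, 122 and 107 higher genes, and the median log2 difference was -0.41, -0.036 and 0.014. List genes called were 800 lower and 33 higher, then 277 and 127 without ERCC scaling and 248 and 149 with median scaling. With a floor of 0.1 FPKM the 3-fold rule took 841 lower and 102 higher genes. A mean of at least 5 FPKM, which tests fewer genes, left 2494 lower and 118 higher calls and 272 and 31 genes past 3-fold. A fit to the 4 GV libraries alone gave 2832 lower and 198 higher calls, and 479 lower list genes, and, added after seeing the data, without ERCC scaling too, 871 and 390. Requiring 3-fold between every pair of libraries left 237 and 21 genes. Leaving out 1 library gave 2654 to 4265 lower and 204 to 305 higher calls, 354 to 638 and 49 to 69 genes past 3-fold, medians of -0.49 to -0.33, and 448 to 769 lower and 26 to 40 higher list genes. Of the protein-coding genes called with both scalings (1446 and 274), leaving out 1 library, added after seeing the data, left 744 to 1184 lower and 177 to 262 higher, and the 4 GV libraries alone 813 and 173. The library that moved the lower calls most was WT replicate 1 (2654 without it) and for the higher calls WT replicate 2 (204). The cause was not tested. Zp2 was at -0.00 and was called higher without ERCC scaling (0.45) and with median scaling (0.51), H1foo higher without ERCC scaling (0.39), and Birc5 was at 0.0091 with median scaling, not called. Of 142 named genes (124 called) 114 stayed called or not called in every alternative that tested them. A replicate block gave 4779 lower and 329 higher calls, and called Btg4 (adjusted p = 0.0295) and Pttg1 (adjusted p = 0.00718) lower. The knockout effect differed between stages for 13 of 24 genes with the deposited values and with the block, 10 without ERCC scaling, 9 with median scaling and 9 with a pseudocount of 0.1 FPKM. Differences between replicates 2 and 1 had r = -0.11 over 5966 genes for WT GV and null GV libraries. The value was 0.19 for WT growing and null growing libraries, and 0.19 for WT growing and WT GV libraries. Nothing states whether the numbers mark libraries prepared together, and these values cannot decide it. Both WT growing libraries had an ERCC factor of 1, and r does not respond to such factors. A block with crossed numbers of the null GV libraries, added after seeing the data, gave 5055 and 334. The unknown depth limits low genes most.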

Other observations

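Genes that fell were also set beside their neighbours on the chromosome. Of 416 protein-coding genes with a position that were more than 3-fold lower, 67 (16.1%) had an adjacent expressed protein-coding gene that was more than 3-fold lower too, beside 8.04% of all 9882 genes with a position. For genes that fell with both scalings, 503 of 1435 (35.1%) had such a neighbour, beside 26.3% of all. Adjacent genes can overlap and share reads, and no test was made of these shares.

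A run of 5 adjacent expressed protein-coding genes on chromosome 10 (mm9 chr10:128134995-128314694) was more than 3-fold lower throughout. It was chosen after its values were seen. The run holds the kinase gene Cdk2 (5.95 and 4.94 FPKM in WT, 1.40 and 2.15 FPKM in null), Wibg, of the exon junction complex machinery (20.05 and 18.04 FPKM, 6.03 and 6.42 FPKM), the co-chaperone gene Dnajc14 (22.3 and 18.3 FPKM, 5.19 and 6.76 FPKM), Ormdl2 (31.1 and 27.4 FPKM, 8.61 and 8.93 FPKM) and Sarnp (48.1 and 34.7 FPKM, 7.67 and 8.58 FPKM). All 5 fell with both scalings, with folds between 3.06 and 5.10, and Dnajc14 and Ormdl2 overlap at their ends. In growing oocytes Wibg, Dnajc14, Ormdl2 and Sarnp were also lower with the deposited scaling, with log2 differences between -0.53 and -1.02, and Cdk2 was higher (0.78, adjusted p = 0.00479).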
